A study of Mus musculus with 4 samples.

Results

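The genes described here are 6 receptors that costimulate lymphocytes, namely Tnfrsf4 (OX40), Tnfrsf9 (4-1BB, CD137), Tnfrsf18 (GITR) and Cd27 of the TNF-receptor family, and Icos and Cd28 of the CD28 family. They were chosen by symbol from the 32285 gene rows of the single-cell matrices. Their UMIs (unique molecular identifiers, each standing for 1 captured transcript) were summed in 5 classes of cells from YUMMER1.7 tumors, and levels are given as CPM, a gene's UMIs in 1000000 UMIs of a class.

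A T cell that meets its antigen needs a second signal to divide and survive. CD28, present on resting T cells, gives it when it binds CD80 or CD86 on an antigen-presenting cell, and ICOS, induced after activation, binds ICOS ligand. Both recruit phosphatidylinositol 3-kinase. OX40, 4-1BB, GITR and CD27 bind ligands of the TNF family (OX40 ligand, 4-1BB ligand, GITR ligand and CD70) and act through TRAF adaptors on NF-κB. OX40, 4-1BB and GITR are known as receptors induced by activation and as abundant on regulatory T cells in tumors, and antibodies against them have been tried in cancer immunotherapy.

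On GRCm38, with gene models of GENCODE vM21, Tnfrsf4 (ENSMUSG00000029075) lies at chr4:156013843-156016612 on the plus strand and Tnfrsf18 (ENSMUSG00000041954) at chr4:156026164-156028895 on the same strand, so that 9.6 kb separate the end of the first from the start of the second. Tnfrsf9 (ENSMUSG00000028965) lies on the same chromosome and strand at chr4:150914562-150946102. Cd28 (ENSMUSG00000026012, chr1:60716800-60773359) and Icos (ENSMUSG00000026009, chr1:60977927-61000320) are also neighbors on 1 strand, with 204.6 kb between them, and Cd27 (ENSMUSG00000030336) lies at chr6:125232622-125237010 on the minus strand. The promoters of the neighboring pair Tnfrsf4 and Tnfrsf18 and of the downstream start of Tnfrsf9 are shown because these 3 genes were the members found outside lymphocytes below. Each run is the 250 bases before a RefSeq start on GRCm38.p6, plus strand, 5′ to 3′, and capitals mark matches to an AP-1 site (TGANTCA) or to the NF-κB consensus, searched on both strands.

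Tnfrsf4, chr4:156013445-156013694: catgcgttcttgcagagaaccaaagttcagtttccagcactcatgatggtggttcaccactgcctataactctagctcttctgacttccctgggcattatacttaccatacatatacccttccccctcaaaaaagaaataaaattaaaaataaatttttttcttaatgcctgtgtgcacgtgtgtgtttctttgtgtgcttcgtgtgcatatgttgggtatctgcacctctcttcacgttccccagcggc
Tnfrsf18, chr4:156026072-156026321: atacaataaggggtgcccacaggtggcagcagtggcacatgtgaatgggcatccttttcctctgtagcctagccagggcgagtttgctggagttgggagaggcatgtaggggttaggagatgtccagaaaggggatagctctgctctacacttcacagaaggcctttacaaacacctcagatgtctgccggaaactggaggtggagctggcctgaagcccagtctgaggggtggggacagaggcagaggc
Tnfrsf9, chr4:150927749-150927998: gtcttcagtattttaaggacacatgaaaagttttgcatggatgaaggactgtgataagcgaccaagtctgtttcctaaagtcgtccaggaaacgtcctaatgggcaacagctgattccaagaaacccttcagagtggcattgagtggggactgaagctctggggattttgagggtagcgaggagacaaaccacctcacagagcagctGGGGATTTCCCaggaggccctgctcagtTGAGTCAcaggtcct

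The Tnfrsf9 window held 1 AP-1 match beginning 15 bases before the start and 2 overlapping NF-κB matches beginning 43 and 42 bases before it. The Tnfrsf4 and Tnfrsf18 windows, the other Tnfrsf9 start and Cd27 held neither pattern in these 250 bases. Among 32851 promoters of the same length, 6.75% held the AP-1 letters and 7.25% the NF-κB consensus. Such a match describes the sequence and was not tested as a binding site. Icos and Cd28 had no promoter entry.

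C57BL/6J male WT mice 7 to 8 weeks old carried YUMMER1.7, a mouse melanoma line made immunogenic by ultraviolet irradiation. From day 7 they received an isotype control, 10 mg/kg of clone RMP1-14 against PD-1, 20 mg/kg of clone IIID.9 against MIF, or both antibodies, for 1 week (2 doses, tumors taken at day 14, the short cohort) or 2 weeks (4 doses, day 21, the long cohort). Tumor cells were sorted and recombined to 80% CD45+ and 20% CD45-, hashtag antibodies marked the treatment, and all cells of a cohort entered 1 10x library. After assignment to arms and filtering, the long cohort gave 1671 cells, made up of 204 isotype, 319 anti–PD-1, 879 anti-MIF and 269 double-treated cells, with a median of 8242 UMIs. The short cohort gave 3119 cells (745, 1370, 556 and 448, median 5835 UMIs). Each arm of a cohort is thus 1 sample, without a replicate, and the mice within an arm were not told apart. The arms served as replicates of each other in every test, so that p-values measure the spread between arms of a shared library. Day, number of doses and library change together between the cohorts and cannot be told apart. The cohorts' barcode lists shared 20 barcodes.

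The classes were CD8 T cells (Cd3e and Cd8a UMIs, no Cd4), Foxp3-positive CD4 T cells (Cd3e, Cd4 and Foxp3, no Cd8a), other CD4 T cells (Cd3e and Cd4, neither Foxp3 nor Cd8a), NK cells (Ncr1, no Cd3e) and mature dendritic cells (DCs; Ccr7 and Fscn1, neither Cd3e nor Ncr1). They held 386, 21, 42, 141 and 149 cells over the 8 arms, with medians of 4971, 5071, 3596, 5705 and 8000 UMIs per cell. Macrophages and monocytes (Lyz2 and Csf1r, outside the other gates) gave 2590 cells with a median of 7836.5 UMIs. Levels of lymphocyte genes in them served as a low reference, and how far these come from free RNA was not tested. CD4 T cells were few. The Foxp3-positive class came from 6 arms, with 2 anti–PD-1 and 8 anti-MIF cells in the long cohort and 4 isotype, 4 anti–PD-1, 2 anti-MIF and 1 anti–PD-1/anti-MIF cells in the short cohort, and the 2 long anti–PD-1 cells were far deeper (median 22246 UMIs) than the others.

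Several markers not used in the gates were highest in the class they define, and others were shared between classes. Cd8b1, the CD8β chain, reached 1071 CPM in CD8 T cells and 0 CPM in other CD4 T cells. Il2ra (CD25), Ikzf2 (Helios) and Ctla4 reached 787, 1230 and 1477 CPM in Foxp3-positive cells. In other CD4 T cells Ikzf2 and Ctla4 were still at 279 and 678 CPM. Whether that class includes regulatory cells without a captured Foxp3 UMI was not tested. Cd40lg, the helper ligand for CD40, was at 0 UMIs in Foxp3-positive cells and at 190 CPM in other CD4 T cells. Of the cytotoxic genes, Gzmb was higher in NK cells (2583 CPM) than in CD8 T cells (1298 CPM) and reached 862 CPM in Foxp3-positive cells, and Nkg7 was at 786 CPM in other CD4 T cells. Ly6c2, a monocyte marker, was at 1103 CPM in CD8 T cells. NK cells had 451 CPM of Klrb1c and 211 CPM of Eomes, and mature DCs 933 CPM of Cacnb3 and 914 CPM of Ccl22. The summed T cell markers (Cd3d, Cd3g, Trac, Trbc2 and Lat) were at 3721 CPM in CD8 T cells, 162 CPM in NK cells, mostly Trbc2, and 4.57 CPM (6 UMIs, with Cd3d, Cd3g and Trbc2 at 0) in mature DCs. Since the sums weigh cells by their UMIs, fewer cells with a transcript and less of it per cell cannot be told apart in a level.

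Each receptor had its own order across the classes (pooled over the 8 arms). Tnfrsf4 fell from 1241 CPM in Foxp3-positive cells through 615 in other CD4 T cells, 290 in mature DCs and 149 in CD8 T cells to no UMI in NK cells. Foxp3-positive and other CD4 T cells did not differ beyond their spread, whereas the next neighbors did. The calls of mature DCs against other CD4 T cells and against CD8 T cells were lost without the long anti-MIF arm. In the short cohort the medians over arms were 139 CPM in mature DCs and 149 CPM in CD8 T cells. Tnfrsf4 entered the test of NK against CD8 T cells through the CD8 T cells only. Tnfrsf18, the neighbor of Tnfrsf4, ran from 764 CPM in Foxp3-positive cells and 691 in other CD4 T cells to 260 in CD8 T cells, 145 in mature DCs and 109 in NK cells. The 2 CD4 classes again did not separate, and mature DCs against NK cells was not tested. Tnfrsf9 was the most even of the 6 across these classes, with 1104 CPM in Foxp3-positive cells, 703 in other CD4 T cells, 656 in NK cells, 543 in CD8 T cells and 295 in mature DCs, where among tested neighbors only the last step passed. The level in other CD4 T cells came mostly from 1 arm, and over the 4 arms with at least 5 cells its median was 348 CPM, below the medians of 620 CPM in NK cells (7 arms) and 496 CPM in CD8 T cells (8 arms). In Foxp3-positive cells Tnfrsf9 ran from 67.4 to 2067 CPM over 6 arms, with a median of 578 CPM, so the pooled order is not that of the arm medians. Cd27 was at 207 CPM in Foxp3-positive cells, 115 in CD8 T cells, 71.5 in NK cells, 44.4 in other CD4 T cells and 0.762 (1 UMI) in mature DCs.

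The CD28 family was found in the 4 lymphocyte classes and was at or near 0 in mature DCs. Icos was at 839 CPM in Foxp3-positive cells, 754 in other CD4 T cells, 235 in CD8 T cells and 61.9 in NK cells, and at 1.52 CPM (2 UMIs) in mature DCs. The order of the 2 CD4 classes did not hold within arms, where Icos was lower in Foxp3-positive cells in 4 of 6. Cd28 was the 1 member whose highest pooled level lay in other CD4 T cells, at 456 CPM, ahead of 190 in Foxp3-positive cells, 164 in CD8 T cells and 69.4 in NK cells. Mature DCs had no Cd28 UMI among 1312137. In macrophages and monocytes the receptors stood at 0.445 CPM for Tnfrsf4, 12.96 for Tnfrsf9, 4.50 for Tnfrsf18, 0.490 for Icos, 1.25 for Cd28 and 0.267 for Cd27. These levels lie below those of every class in which a receptor was described as present. The summed T cell markers were at 2.54 CPM in the same cells, below Tnfrsf9 and Tnfrsf18, and the source of these UMIs was not tested.

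**Figure D1:**
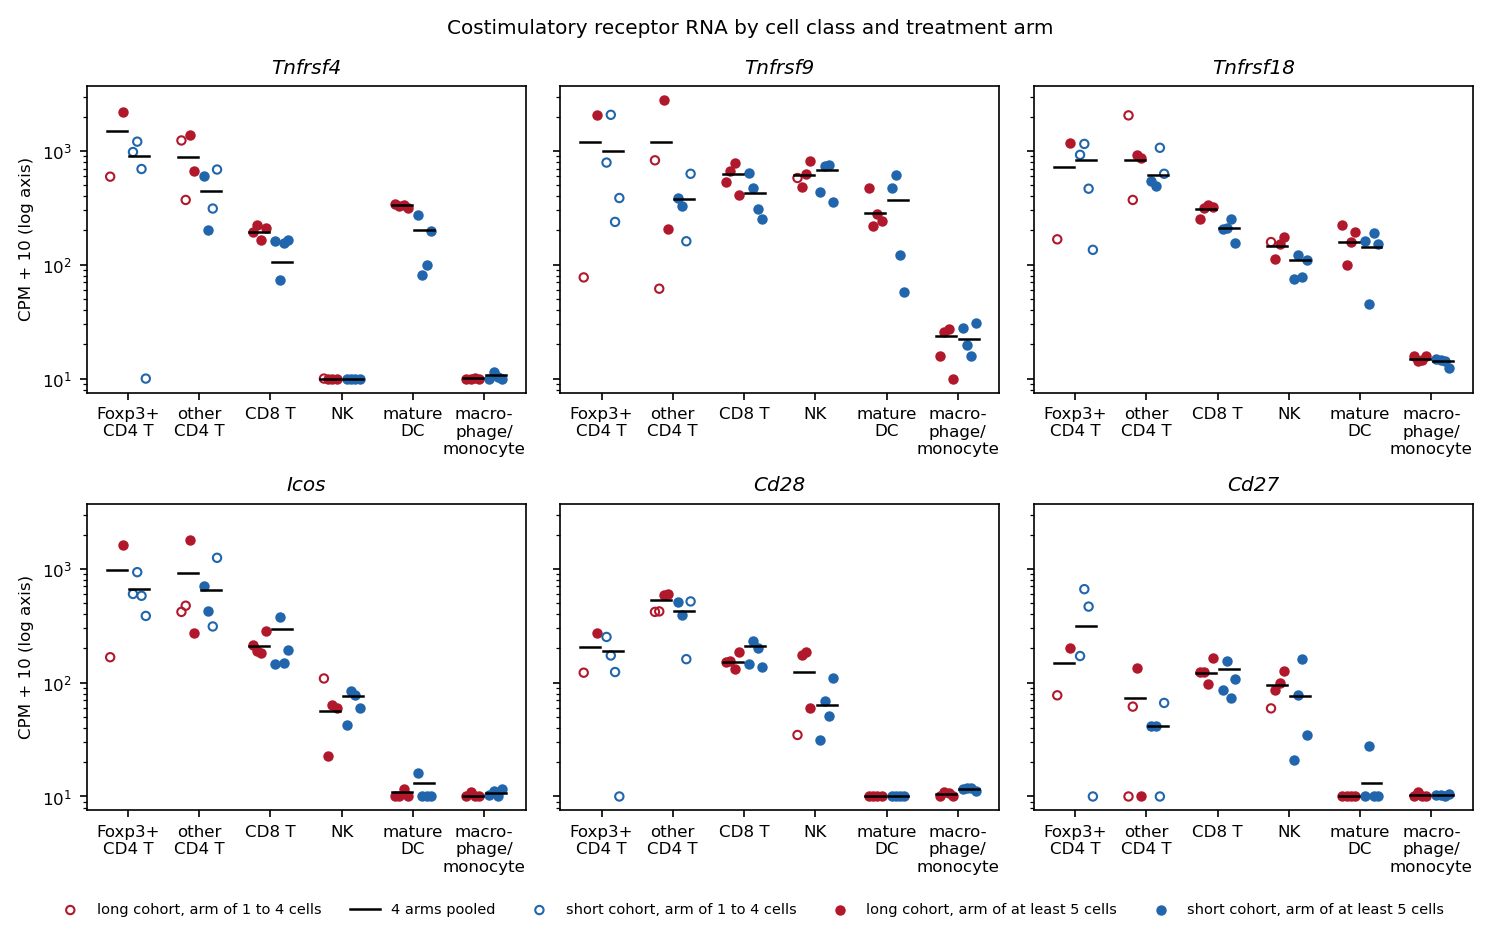
Level of each receptor (CPM + 10, log axis) in each class, with 1 point per arm and cohort. Points are open where an arm held 1 to 4 cells of the class. Black lines give the 4 arms pooled, 1 line for each cohort. Tnfrsf4 is at 0 in all NK points, and Icos, Cd28 and Cd27 are at or near 0 in mature DCs.

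CD8 T cells were compared with other CD4 T cells within the 4 arms that held at least 5 cells of each (long anti-MIF, long anti–PD-1/anti-MIF, short isotype and short anti–PD-1). Of the 5 members tested, Tnfrsf4, Tnfrsf18 and Cd28 were lower in CD8 T cells and none was higher, where 2.53% of 1027 genes were called lower and 3.02% higher. A gene was tested where it reached a set level in at least 2 sums of an arm and class, and Tnfrsf4 and Cd28 did so in the other CD4 T cells only. A gene that enters through 1 class can hardly come out higher in the other, so counts of members called are descriptions here and below. In the same order of arms, Tnfrsf4 was at 157, 200, 152 and 63.2 CPM in CD8 T cells and at 1357, 661, 596 and 192 CPM in other CD4 T cells. It was lower in CD8 T cells in 4 of 4 arms, and the ranges touched only through the short anti–PD-1 value of the CD4 cells (log2 fold change -2.09 ± 0.35 SE, edgeR adjusted p = 0.0034).

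Tnfrsf18 was at 323, 309, 198 and 200 CPM in CD8 T cells against 905, 859, 534 and 480 CPM, with no overlap between the classes (-1.27 ± 0.28 SE, edgeR adjusted p = 0.0165). Cd28 was at 123, 175, 137 and 224 CPM against 576, 595, 502 and 384 CPM, again without overlap (-1.48 ± 0.33 SE, edgeR adjusted p = 0.0179). With any of the long anti-MIF, long anti–PD-1/anti-MIF or short isotype arms left out, both calls were lost (edgeR adjusted p = 0.0764, 0.0605 and 0.0926 for Tnfrsf18 and 0.135, 0.0627 and 0.0776 for Cd28), while the direction stayed. The Icos value was -1.49 ± 0.50 SE, lower in 3 of 4 arms, without passing the test (edgeR adjusted p = 0.113).

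Tnfrsf9 in other CD4 T cells was dominated by a single arm. It was at 2796 CPM (68 UMIs in 7 cells) with long anti-MIF and at 198, 377 and 320 CPM in the other arms, against 773, 401, 624 and 464 CPM in CD8 T cells, which were thus higher in 3 of 4 arms. The fitted difference was -0.05 ± 0.45 SE (edgeR adjusted p = 0.960), and without the long anti-MIF arm it was 0.85. Cd27, at 123, 0, 31.4 and 32.0 CPM in other CD4 T cells and 86.4, 154, 76.1 and 146 CPM in CD8 T cells, was too low to be tested.

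Foxp3-positive cells were compared with other CD4 T cells of the same 6 arms, and none of the 5 members tested passed, against 0.548% of 547 genes called higher and 0.731% lower. Across all genes edgeR had 90 at an unadjusted p under 0.05 and DESeq2 called 20. Cd28 was lower in the Foxp3-positive cells in 6 of 6 arms (-1.41 ± 0.48 SE, edgeR adjusted p = 0.168), and Tnfrsf4 was higher in 5 of 6 (0.74 ± 0.49 SE, edgeR adjusted p = 0.501). Tnfrsf18 and Icos differed by -0.01 ± 0.40 SE and -0.23 ± 0.40 SE. Cd27 was too low to be tested here. It was higher in the Foxp3-positive cells in 5 of 6 arms, with a 4.67-fold ratio of the levels pooled over all arms (exact 95% interval 2.05 to 12.4, counting error only).

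Against CD8 T cells, Tnfrsf4 and Icos were higher in Foxp3-positive cells, 2 of 6 members, where 3.98% of 1608 genes were called higher and 6.97% lower. Tnfrsf4 entered this test through the Foxp3-positive cells only, and Icos through either class. Tnfrsf4 was at 584 and 2203 CPM in the long anti–PD-1 and anti-MIF arms, at 969, 1197 and 684 CPM in the short isotype, anti–PD-1 and anti-MIF arms, and at 0 CPM in the 1 cell of the short anti–PD-1/anti-MIF arm. All but that single cell exceeded the CD8 T cells of every arm, of which the highest was 212 CPM (2.38 ± 0.48 SE, edgeR adjusted p = 0.0017). Icos was at 157 and 1609 CPM in the long arms and 592, 925, 570 and 376 CPM in the short arms, higher than in CD8 T cells in 5 of 6 arms (1.42 ± 0.41 SE, edgeR adjusted p = 0.0244).

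The exception for Icos was the deep pair of long anti–PD-1 cells, which also had the lowest Tnfrsf9 (67.4 CPM) of the class. Without that arm, Tnfrsf18 passed as well (1.55, edgeR adjusted p = 0.0057), while with all 6 arms it stood at 1.06 ± 0.42 SE (edgeR adjusted p = 0.120). The Icos call was lost without long anti-MIF (edgeR adjusted p = 0.142), short isotype (0.111), short anti–PD-1 (0.0634) or short anti-MIF (0.0603). Cd27 and Cd28 stood at 0.92 ± 0.48 SE and -0.08 ± 0.45 SE, and Tnfrsf9 at 0.20 ± 0.47 SE, none of them past the test.

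NK cells were compared with CD8 T cells in 7 arms (long isotype, with 4 NK cells, was left out). Of the 6 members, 4 were lower in NK cells and none higher, where 8.29% of 2279 genes were called lower and 7.72% higher. Tnfrsf4 and Icos entered the test through the CD8 T cells only. Tnfrsf4 had 0 UMIs among 936909 NK UMIs of all 8 arms, which allows up to 3.20 CPM, so that the level was at least 46.5-fold lower than in CD8 T cells. Since Tnfrsf4 was at 63.2 CPM or more in the CD8 T cells of every arm, the NK and CD8 values did not overlap.

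Icos was at 12.7 to 74.7 CPM in NK cells (median 49.8) and 137 to 368 CPM in CD8 T cells (median 181), without overlap (-2.17 ± 0.25 SE, edgeR adjusted p = 7.4e-06). Tnfrsf18 ran from 64.9 to 166 CPM (median 102) against 147 to 323 CPM (median 241) and was lower in 7 of 7 arms (-1.21 ± 0.21 SE, edgeR adjusted p = 0.00042). Cd28 ran from 21.6 to 177 CPM (median 58.5) against 123 to 224 CPM (median 144) and was lower in 5 of 7 arms (-1.10 ± 0.34 SE, edgeR adjusted p = 0.0375). This last call was lost without long anti–PD-1/anti-MIF (edgeR adjusted p = 0.0969), short isotype (0.0722), short anti–PD-1 (0.202) or short anti-MIF (0.0896). By cohort, the Cd28 medians in NK cells were 165 CPM (long, 3 arms) and 49.8 CPM (short, 4 arms). Those in CD8 T cells were 143 and 164 CPM (4 arms each). The difference between cohorts did not pass (1.68 ± 0.56 SE, edgeR adjusted p = 0.430).

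Tnfrsf9, by contrast, ran from 349 to 813 CPM in NK cells (median 620) and from 244 to 773 CPM in CD8 T cells (median 464), and was higher in NK cells in 4 of 7 arms (0.27 ± 0.22 SE, edgeR adjusted p = 0.503). Cd27 ran from 10.8 to 151 CPM against 63.4 to 154 CPM and was lower in NK cells in 5 of 7 arms without passing (-0.57 ± 0.32 SE, edgeR adjusted p = 0.273). T cell markers in the NK gate (162 CPM) lay beside these values, and their part in the Icos and Cd28 levels was not tested. The gate also held 246.6 CPM of Lyz2, a myeloid gene.

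Mature DCs carried 3 of the receptors, Tnfrsf4, Tnfrsf9 and Tnfrsf18, and lacked the others. The comparisons with macrophages and monocytes and with CD8 T cells were added after the data were seen. Against macrophages and monocytes in 8 arms, these 3 were higher, where 19.7% of 8544 genes were called higher and 32.3% lower. Tnfrsf4 and Tnfrsf18 entered the test through the mature DCs only, and Tnfrsf9 through either class, while the members low in both classes could not be tested. Tnfrsf4 in mature DCs was at 335, 319, 323 and 304 CPM in the long isotype, anti–PD-1, anti-MIF and double-treated arms and at 266, 70.5, 89.2 and 190 CPM in the short arms, in the same order. Macrophages and monocytes reached at most 1.497 CPM in any arm (10 UMIs in all), a 650-fold ratio of the pooled levels (exact 95% interval 350 to 1367, edgeR adjusted p = 1.2e-36).

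Tnfrsf9 in mature DCs was at 458, 208, 269 and 233 CPM in the long arms and at 459, 599.5, 112 and 47.4 CPM in the short arms. The lowest of these still exceeded the highest macrophage and monocyte value of 20.98 CPM (log2 4.44 ± 0.27 SE, edgeR adjusted p = 1.4e-26). Tnfrsf18 was at 212, 89.0, 147 and 182 CPM in the long and at 151, 35.3, 178 and 142 CPM in the short arms, against at most 5.88 CPM (log2 4.74 ± 0.28 SE, edgeR adjusted p = 6.2e-27). The levels of T cell markers in these cells (4.57 CPM) and of Cd28 (0 UMIs) lie far below those of the 3 receptors. The gate leaves out barcodes with a Cd3e UMI, which by itself can lower T cell markers. The source of the receptor UMIs was not tested.

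Set against CD8 T cells in 8 arms, Tnfrsf4 was higher in mature DCs and the other 5 members lower, where 30.6% of 3933 genes were called higher and 36.4% lower. Icos, Cd28 and Cd27 entered the test through the CD8 T cells only, so that their direction was set beforehand, and the 3 TNF receptors Tnfrsf4, Tnfrsf9 and Tnfrsf18 through either class. Tnfrsf4 was higher in 7 of 8 arms (0.58 ± 0.20 SE, edgeR adjusted p = 0.0119), and the exception was short anti-MIF. Without long anti-MIF, which gave 69 of the 149 DCs, the difference was 0.45 and no longer passed (edgeR adjusted p = 0.0763), and in the short cohort alone it was -0.01. Tnfrsf9 was lower in 7 of 8 arms and Tnfrsf18 in 8 of 8, each by about the same amount (-0.90 ± 0.21 SE in both, edgeR adjusted p = 0.00042).

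Icos, Cd28 and Cd27 were at or near 0 in mature DCs, and their folds are ratios of the levels pooled over all 8 arms. Icos was 154-fold lower than in CD8 T cells (exact 95% interval 42.4 to 1274, from 2 UMIs), Cd27 150-fold lower (26.8 to 5965, from 1 UMI), and Cd28, with 0 UMIs, at least 71.7-fold lower. Against other CD4 T cells in 4 arms, 4 of 5 members tested were lower in mature DCs and none higher, where 23.8% of 1099 genes were called lower and 31.6% higher. Tnfrsf18, Icos and Cd28 entered through the CD4 T cells only. These were Tnfrsf18 (-2.12 ± 0.34 SE, edgeR adjusted p = 1.2e-05), Tnfrsf4 (-1.23 ± 0.33 SE, edgeR adjusted p = 0.0032), Icos (495-fold, interval 134 to 4132) and Cd28 (at least 199.5-fold), the last 2 folds again over the levels of all 8 arms. The Tnfrsf4 call needed long anti-MIF (-0.95 without it, edgeR adjusted p = 0.0631), and Tnfrsf9 did not pass (-0.47 ± 0.56 SE, edgeR adjusted p = 0.493).

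Most ligand genes of these receptors were at higher levels in mature DCs than in CD8 T cells or in macrophages and monocytes. Of 7 ligand genes, 6 were tested against CD8 T cells and called higher, but 5 of these entered the test through the mature DCs only, so this count is no support. Of all 3933 genes, 30.6% were called higher there. Against macrophages and monocytes, where 19.7% of 8544 genes were called higher, 5 of 6 ligand genes tested were higher. Of these, 2 (Cd70 and Tnfsf4) were tested through the mature DCs only. Cd70, the ligand of CD27, was at 72.4 CPM in mature DCs and had no UMI in macrophages and monocytes, at least 542-fold lower. Tnfsf4, the OX40 ligand, was at 70.9 CPM against 0.0445 CPM (1 UMI). Icosl and Cd80 were higher by 1.87 ± 0.25 SE and 1.81 ± 0.19 SE on the log2 scale (edgeR adjusted p = 3.1e-10 and 1.5e-13), whereas Cd86 was at 448 CPM in mature DCs and 472 CPM in macrophages and monocytes. Tnfsf18, the GITR ligand, had 0 UMIs in mature DCs, which allows up to 2.29 CPM, and 2 UMIs in all other classes together: 1 in NK cells and 1 in macrophages and monocytes.

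Genes of TNF-receptor signaling and NF-κB were also higher in mature DCs. Of 21 genes, 19 were higher than in macrophages and monocytes and none lower (median log2 fold change 1.19, against -0.21 for all genes), and all 21 reached the level for testing in either class. They included Relb (4.08 ± 0.19 SE), which acts in the noncanonical NF-κB pathway, Map3k14 (3.26 ± 0.19 SE), the kinase that starts that pathway, the adaptor Traf1 (4.04 ± 0.19 SE) and the ubiquitin ligase Birc2 (3.99 ± 0.21 SE). Against other CD4 T cells, where 31.6% of 1099 genes were called higher and 23.8% lower, 10 of 13 tested were higher and 1 lower. Of the 13, 8 were tested through the mature DCs only. The called genes were led by Map3k14 (4.12 ± 0.55 SE), Ikbkb (4.11 ± 0.72 SE), Relb (3.81 ± 0.52 SE) and Nfkb2 (3.69 ± 0.68 SE). In that comparison the ligands Cd80 and Cd86 were also higher (5.23 ± 0.79 SE and 3.32 ± 0.46 SE), and Cd40 had no UMI in the T cells, at least 14.7-fold below mature DCs. All 7 of these genes entered the test through the mature DCs only. Of the other lists, Ctla4, with 4 UMIs in mature DCs (-7.76 ± 0.62 SE), Pdcd1 (-2.23 ± 0.45 SE), Capg (-3.00 ± 0.61 SE) and Klf2 (-1.90 ± 0.65 SE) were lower, as were Lck and Tigit, with 0 UMIs in mature DCs (at least 191-fold and 139-fold), and all 6 entered through the other CD4 T cells only. Among 21 genes of CD28 and ICOS signaling, 19 were tested against CD8 T cells, and 11 were lower and 3 higher in mature DCs. Of all 3933 genes tested there, 36.4% were called lower and 30.6% higher. Of the 19, 10 were tested through the CD8 T cells only, and Lck, Zap70 and Prkcq were at 0 UMIs in mature DCs. Mature DCs also had more Pdcd1 (6.50 ± 0.47 SE), Btla (3.57 ± 0.39 SE), Il2ra (3.81 ± 0.28 SE), Tcf7 (8.43 ± 0.43 SE) and Il7r (3.06 ± 0.20 SE) than macrophages and monocytes, and 68 UMIs of Ikzf4 against 0. Of these, Il7r alone reached the level for testing in either class, and the others did so in mature DCs only. Of 8 other TNF-receptor genes tested, 2 were higher than in macrophages and monocytes and 4 lower, where 19.7% of 8544 genes were called higher and 32.3% lower. Cd40, which receives help from CD40 ligand, was higher (2.05 ± 0.18 SE) and the TNF receptor Tnfrsf1a lower (-2.58 ± 0.26 SE).

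Between the T cell classes few of these genes passed, and none of the lists gave a call between Foxp3-positive and other CD4 T cells. CD8 T cells had less Nfkb1 (-1.42 ± 0.36 SE) and less of the adaptor Lcp2 (-1.31 ± 0.30 SE) than other CD4 T cells, 1 of 6 tested NF-κB genes and 1 of 14 tested CD28 and ICOS signaling genes, and less of the quiescence factor Klf2 (-2.05 ± 0.56 SE), 1 of 3 naive and memory genes. All 3 entered the test through the other CD4 T cells only, which leaves their direction as a description. Of all 1027 genes, 2.53% were called lower in CD8 T cells and 3.02% higher. Foxp3-positive cells had more Nfkbia (1.83 ± 0.39 SE), the inhibitor that NF-κB itself induces, and more of the TRAF-binding Tank (1.78 ± 0.46 SE) than CD8 T cells, 2 of 7 tested, and less Pik3cd (-2.11 ± 0.51 SE), Grap2 (-1.62 ± 0.52 SE) and Cblb (-1.58 ± 0.41 SE), 3 of 14 tested. Of the inhibitory CD28-family receptors, Ctla4 was higher (1.34 ± 0.34 SE) and Pdcd1, which encodes PD-1, lower (-1.73 ± 0.40 SE) in these cells. The regulatory list gave 4 higher genes of 6 tested (Klrg1 by 5.07 ± 0.95 SE, Il2ra by 3.72 ± 0.59 SE, Ikzf2 by 2.73 ± 0.36 SE and Capg by 1.06 ± 0.31 SE), of which Il2ra and Ikzf2 also served to check the gate. In the list of naive and memory genes, Bcl2, which protects from cell death, had 0 UMIs in Foxp3-positive cells, at least 18.6-fold below CD8 T cells. Tank, Klrg1 and Il2ra entered this test through the Foxp3-positive cells only and Pik3cd, Pdcd1 and Bcl2 through the CD8 T cells only, whereas the other genes named for this comparison did so through either class. Of all 1608 genes, 3.98% were called higher in Foxp3-positive cells and 6.97% lower.

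The same lists were set between NK and CD8 T cells, where 8.29% of 2279 genes were called lower in NK cells and 7.72% higher. Of 18 tested genes of CD28 and ICOS signaling, 6 were lower and 1 higher in NK cells than in CD8 T cells (median -0.05, against -0.02 for all genes). Among the lower were Lat (-3.08 ± 0.24 SE), Grap2 (-2.53 ± 0.24 SE) and Zap70 (-1.40 ± 0.21 SE). Pdcd1 (-5.33 ± 0.40 SE) and Ctla4 (-2.62 ± 0.36 SE) were lower as well. Of 10 tested NF-κB genes Nfkb1 was higher (0.82 ± 0.23 SE) and Tnfaip3 lower (-0.85 ± 0.26 SE). Tnfrsf1b, a TNF receptor of activated lymphocytes, was lower (-1.24 ± 0.24 SE). Among naive and memory genes Bcl2 was higher (0.85 ± 0.15 SE) and the interleukin-7 receptor Il7r lower (-2.80 ± 0.49 SE). Of 3 regulatory genes Ikzf2 (-1.59 ± 0.39 SE) and Capg (-0.84 ± 0.22 SE) were lower. Lat, Grap2, Zap70, Pdcd1, Il7r and Ikzf2 entered this test through the CD8 T cells only, so that their direction is a description, and the other genes named here through either class. The fold changes named for these lists all had an edgeR adjusted p below the threshold of 0.05.

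The treatment arms were compared in CD8 T cells, the only T cell class with enough cells in all 8 arms (54, 48, 67 and 35 cells in the long cohort, for isotype, anti–PD-1, anti-MIF and their combination, and 14, 114, 33 and 21 cells in the short). With cohort, anti–PD-1 and anti-MIF as terms, no member passed for either antibody, and neither did any other of the 4928 genes (0% of genes for anti–PD-1 and 0% for anti-MIF). At an unadjusted p under 0.05, edgeR had 257 genes for anti–PD-1 and 208 for anti-MIF, and DESeq2 called 0 for both. The list genes gave no call for either antibody. Without the filter on low counts, 45 genes were called for anti–PD-1 and 44 for anti-MIF, none of them a member.

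Icos and Cd27 had the largest values for anti–PD-1. Icos was at 205, 181, 173 and 276 CPM in the long and 137, 368, 139 and 186 CPM in the short arms, in the order isotype, anti–PD-1, anti-MIF, combination. The arms with anti–PD-1 were higher than their partners in 3 of 4 pairs. The term was 0.55 ± 0.25 SE (edgeR adjusted p = 0.940, unadjusted 0.0394). Cd27 was at 113, 114, 86.4 and 154 CPM and at 76.1, 146, 63.4 and 97.7 CPM, higher with anti–PD-1 in 4 of 4 pairs, with a term of 0.55 ± 0.25 SE (edgeR adjusted p = 0.946, unadjusted 0.0417). Neither passed over all genes tested.

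Tnfrsf9 ran the other way. It was at 528, 655, 773 and 401 CPM in the long and 624, 464, 298 and 244 CPM in the short arms, so that the arm with both antibodies was the lowest of its cohort in both. The anti–PD-1 and anti-MIF terms were -0.37 ± 0.22 SE and -0.44 ± 0.22 SE (edgeR adjusted p = 0.976 and 0.9995). With the 4 kinds of arm as separate groups, the arms with both antibodies stood -0.83 ± 0.32 SE from isotype (edgeR adjusted p = 0.9996, unadjusted 0.0192), and again 0% of the 4928 genes and no member passed (224 at an unadjusted p under 0.05, DESeq2 not run for this model). Tnfrsf4 was at 183, 212, 157 and 200 CPM in the long and 152, 63.2, 146 and 156 CPM in the short arms, where short anti–PD-1 (35 UMIs in 114 cells) stood below all others. Tnfrsf18, at 243, 306, 323 and 309 CPM and 198, 200, 241 and 147 CPM, and Cd28, at 141, 144, 123 and 175 CPM and 137, 224, 190 and 127 CPM, had antibody terms no larger than 0.18 in size.

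**Figure D2:**
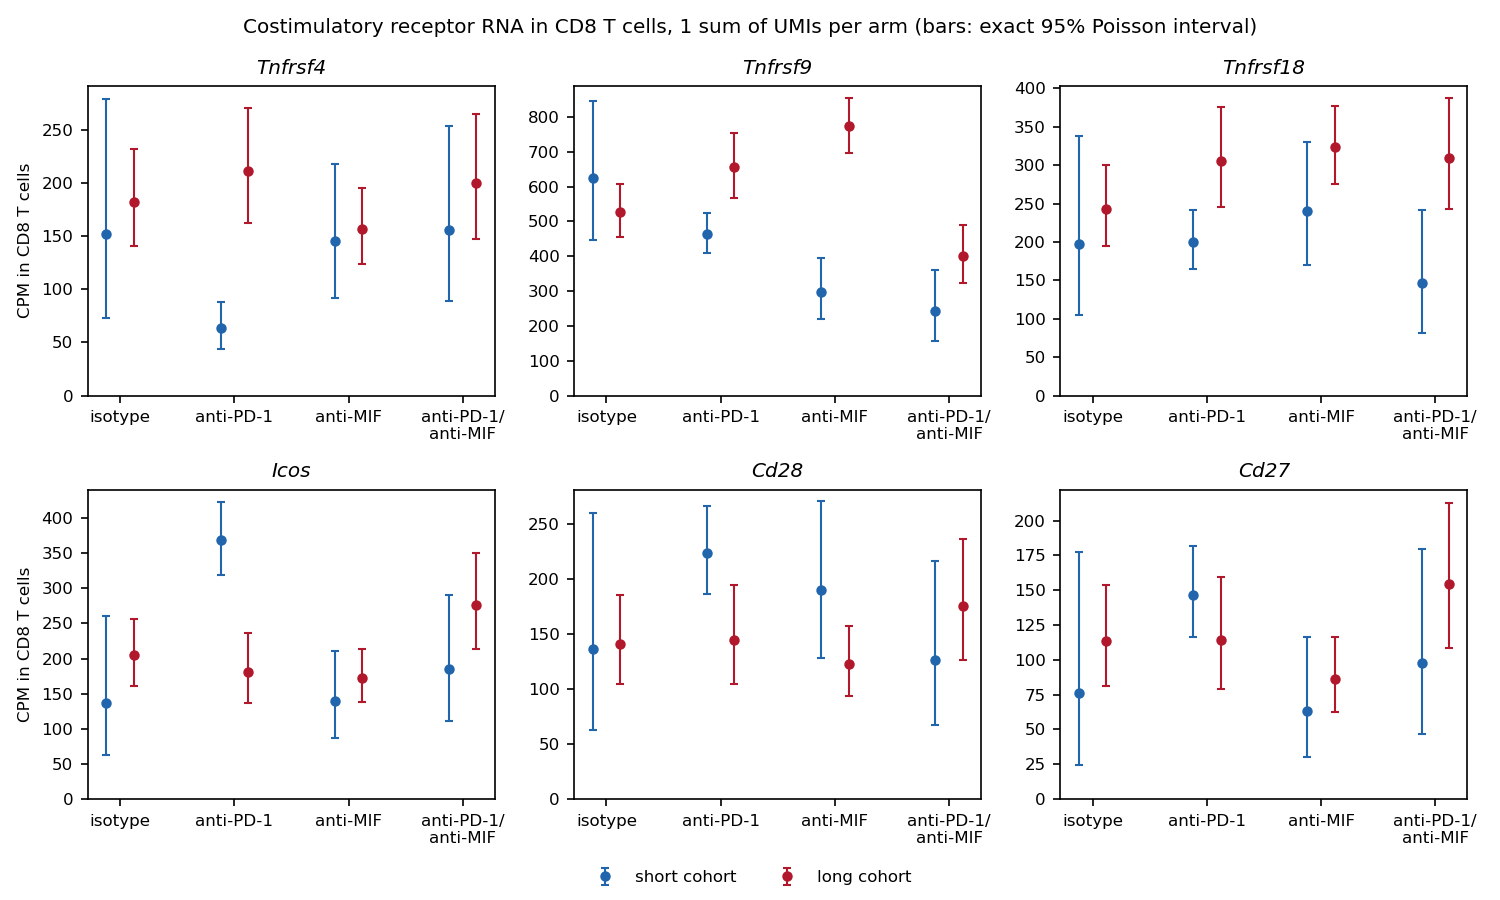
Level of each receptor in CD8 T cells (CPM, linear axis from 0) in the 4 arms of the long and short cohorts, with exact Poisson 95% intervals, which cover counting error only. Icos (368 CPM) is highest and Tnfrsf4 (63.2 CPM) lowest with short anti–PD-1.

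Between the cohorts, 4.81% of the 4928 genes passed in CD8 T cells, and none of the 6 members was among them. The number called depended on single arms, since 237 genes fell to 68 without the long anti–PD-1 arm. DESeq2 called 127. The 3 induced TNF receptors pointed to the long cohort, Tnfrsf4 by 0.68 ± 0.28 SE (edgeR adjusted p = 0.180, higher in 4 of 4 pairs of arms), Tnfrsf18 by 0.49 ± 0.20 SE (edgeR adjusted p = 0.161, 4 of 4 pairs) and Tnfrsf9 by 0.53 ± 0.22 SE (edgeR adjusted p = 0.184, 3 of 4 pairs). With 1 arm left out, the values ran from 0.13 to 0.90 for Tnfrsf4, 0.35 to 0.61 for Tnfrsf18 and 0.25 to 0.79 for Tnfrsf9. Of these, only Tnfrsf9 without the long isotype arm passed (0.79, edgeR adjusted p = 0.0496). Of the lists, 2 of 18 NF-κB genes, 1 of 20 CD28 and ICOS signaling genes and 2 of 5 naive and memory genes were lower in the long cohort, and 1 of 2 inhibitory receptors and 2 of 6 regulatory genes were higher. Cd28, Icos and Cd27 stood at -0.38 ± 0.22 SE, -0.10 ± 0.25 SE and 0.18 ± 0.25 SE.

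The CD4 classes were too thin for the arms. In other CD4 T cells 0% of 367 genes passed for anti–PD-1, 0% for anti-MIF and 0% for cohort (9, 9 and 48 at an unadjusted edgeR p under 0.05, and 0, 0 and 1 called by DESeq2). In Foxp3-positive cells 0% of 553 genes passed for anti–PD-1, 0% for anti-MIF and 0% for cohort (19, 13 and 22, and 0, 0 and 1). The highest Foxp3-positive values lay in the 8 long anti-MIF cells for Tnfrsf4 (2203 CPM), Tnfrsf18 (1154 CPM) and Icos (1609 CPM). The 4 short anti–PD-1 cells were highest for Tnfrsf9 (2067 CPM, beside 2046 with long anti-MIF) and for Cd27 (653 CPM). Errors of the antibody terms reached 1.93 on the log2 scale for Tnfrsf9 in this class. Whether a class difference or an antibody term itself differed between the cohorts was tested 58 times over the members, and none passed. The tests of Tnfrsf4 in NK cells and of Cd28 in mature DCs could not pass, since these classes had no UMI of the gene.

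The levels above could come from a few cells, so cells were also scored for at least 1 UMI after thinning to 2000 UMIs. Tnfrsf9 was found in 49.7% of 354 CD8 T cells (exact 95% interval 44.4 to 55.1) and 57.5% of 134 NK cells (48.6 to 66.0). Tnfrsf4 was found in 71.4% of 21 Foxp3-positive cells (47.8 to 88.7), 43.2% of 37 other CD4 T cells (27.1 to 60.5), 29.9% of 144 mature DCs (22.5 to 38.0) and 18.6% of CD8 T cells (14.7 to 23.1), and in 0 of 134 NK cells (up to 2.72). The order of Tnfrsf4 levels was thus kept in shares of cells, with both cohorts pooled. Shares and limits here describe detection at 2000 UMIs per cell, not the share of cells that express a gene.

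The shares in 2529 thinned macrophages and monocytes, the low reference, were 0.0791% for Tnfrsf4, 1.90% for Tnfrsf9, 0.593% for Tnfrsf18, 0.119% for Icos, 0.277% for Cd28 and 0.0395% for Cd27. Tnfrsf18 was found in 81.0% of Foxp3-positive cells, 59.5% of other CD4 T cells, 39.3% of CD8 T cells, 26.4% of mature DCs and 21.6% of NK cells. Icos was found in 66.7%, 59.5%, 35.3%, 0% and 14.2% of the same classes. The 0 of 144 mature DCs leaves an upper limit of 2.53% for detection at this depth, and without thinning mature DCs held 2 Icos UMIs. Cd28 was found in 28.6%, 51.4%, 30.2%, 0% and 9.70%, and Cd27 in 33.3%, 13.5%, 19.2%, 0.694% and 14.9%. Without thinning, Tnfrsf4 was found in 90.5% of Foxp3-positive cells, 69.0% of other CD4 T cells, 52.3% of mature DCs, 33.4% of CD8 T cells and 0.193% of macrophages and monocytes.

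**Figure D3:**
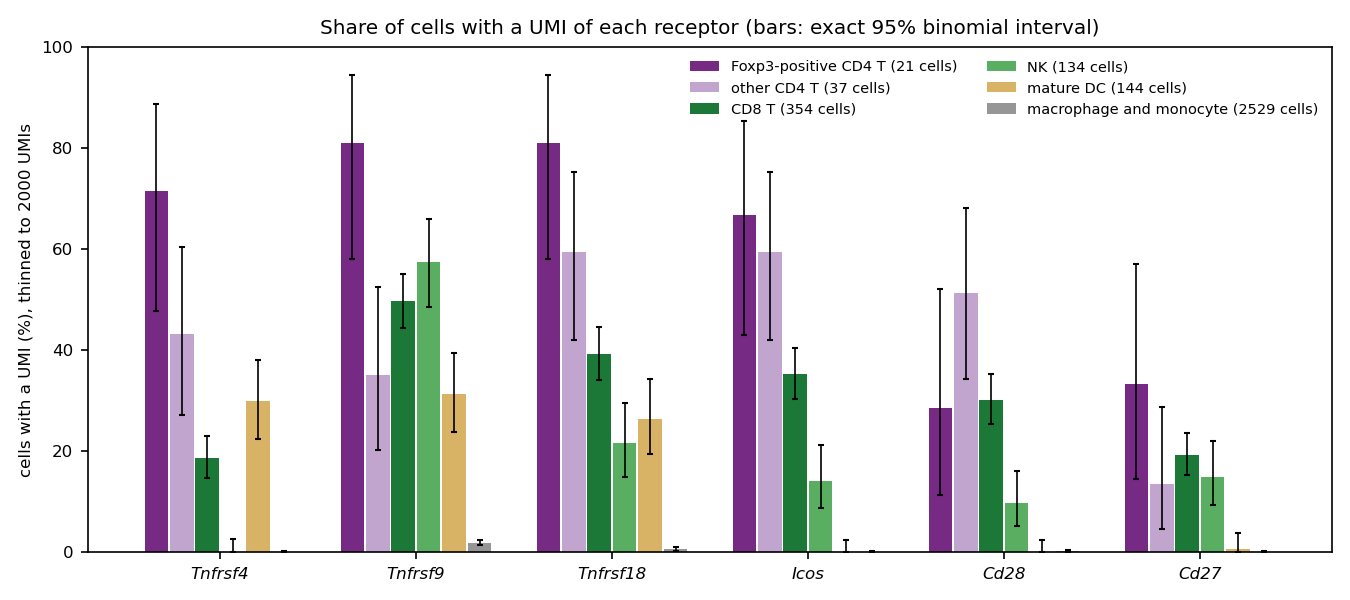
Percent of cells with at least 1 UMI of each receptor after thinning to 2000 UMIs per cell, by class, both cohorts pooled, with exact binomial 95% intervals. At this depth no NK cell had a Tnfrsf4 UMI, and no mature DC an Icos or Cd28 UMI.

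In mature DCs the share with Tnfrsf4 was 36.6% of 101 cells in the long cohort (27.3 to 46.8) and 13.95% of 43 in the short cohort (5.30 to 27.9). The share with Tnfrsf9 was 31.7% and 30.2%. Each cohort is 1 library, so these values were not tested. At least 3 of the 6 receptors were found in 85.7% of Foxp3-positive cells (18 of 21), 54.1% of other CD4 T cells (20 of 37, of which 12 of 15 in the long and 8 of 22 in the short cohort), 31.4% of CD8 T cells (111 of 354), 10.4% of NK cells (14 of 134, or 2 of 32 in the long and 12 of 102 in the short cohort) and 4.17% of mature DCs (6 of 144, all in the long cohort). Single CD8 T cells with all 6 receptors were rare, 2 of 354, and 11.9% had none.

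Within CD8 T cells some pairs were found together more often than others. Tnfrsf9 was found in 60.6% of cells with Tnfrsf4 and 47.2% of cells without it, and Icos in 52.9% of cells with Cd27 and 31.1% without it. Cd28 showed little of this with Tnfrsf9, at 30.1% of cells with and 30.3% without it. The cells share 2 libraries, and these shares are a description.

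Counted by transcripts, mature DCs held the largest share of Tnfrsf4, 28.9% of its 1313 UMIs in 3.11% of the 4790 cells, followed by CD8 T cells (25.8%) and Foxp3-positive cells (16.5% in 0.438% of cells). T cells with neither a Cd4 nor a Cd8a UMI held a further 14.2%. This order rested on the long cohort, where mature DCs held 34.8% and CD8 T cells 28.1%. In the short cohort T cells with neither a Cd4 nor a Cd8a UMI held 23.0%, CD8 T cells 20.7% and mature DCs 15.8%. Over both cohorts CD8 T cells held the largest share of the other members, with 35.3% of Tnfrsf9, 36.1% of Tnfrsf18, 46.0% of Icos, 49.0% of Cd28 and 50% of Cd27. For Tnfrsf9 the cohorts differed in this, since CD8 T cells held 47.9% in the long cohort, whereas in the short cohort NK cells held 27.8% and CD8 T cells 21.8%. Over both, NK cells held 17.5% of Tnfrsf9 and 12.8% of Cd27, and macrophages and monocytes, 54.1% of all cells, held 8.30% of Tnfrsf9 and 0.762% of Tnfrsf4.

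**Figure D4:**
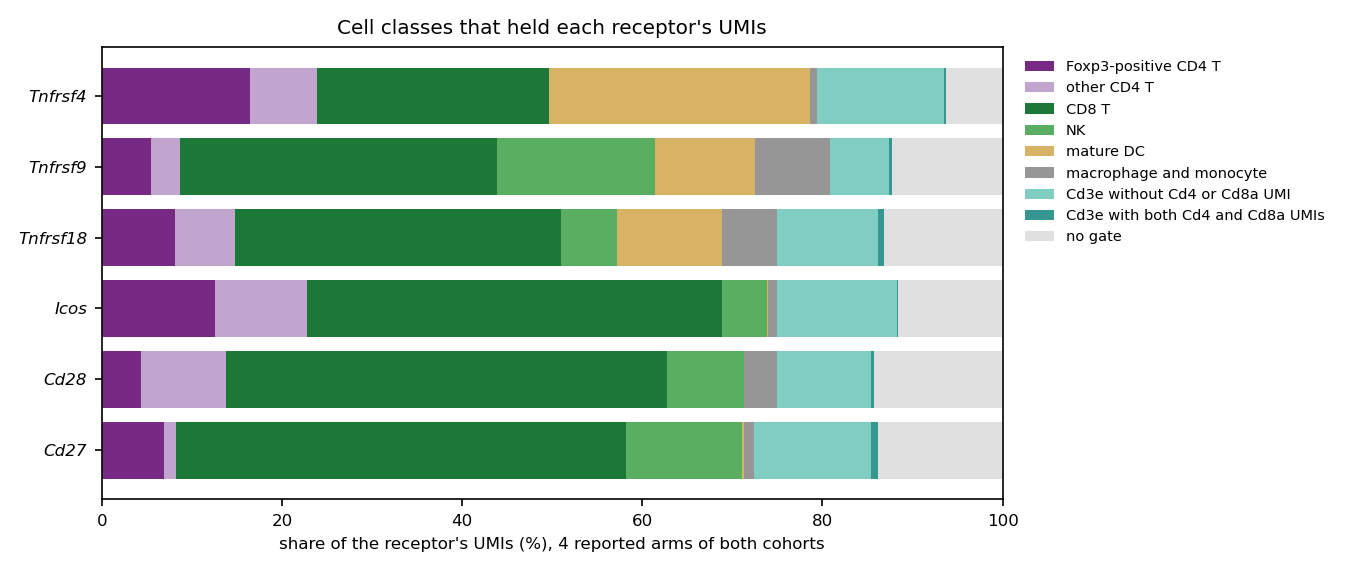
Share of each receptor's UMIs (percent, stacked bars from 0) by class of cell, over both cohorts. Mature DCs make up 28.9% of Tnfrsf4, 0.172% of Icos, 0.192% of Cd27 and none of Cd28.

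The genes whose levels ran most like each receptor were sought over the 28 sums of an arm and class, among 3472 genes. They share libraries and cell numbers, so the correlations are descriptions. Tnfrsf4 was closest to Adam19 (Pearson r = 0.873), Il1r2 (0.865), the decoy receptor for interleukin-1, and Il7r (0.853). Tnfrsf18 was closest to Cd5 (0.864), Sdf4 (0.840) and Rora (0.820), Tnfrsf9 to Spcs1 (0.828), Sash3 (0.753) and Ncf4 (0.716), and Cd27 to Gzmb (0.902), Sema4d (0.881) and Galnt6 (0.870). Icos was closest to Ctla4 (0.929), Lat (0.927) and Dgka (0.926), and Cd28 to Fam102a (0.964) and Gpr174 (0.958).

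Among the members themselves, Icos and Cd28 had the highest correlation (r = 0.909). The neighbors Tnfrsf4 and Tnfrsf18 stood at 0.707. Pairs on different chromosomes were as close, with Tnfrsf18 and Icos at 0.738 and Icos and Cd27 at 0.710. Tnfrsf4 ran apart from Tnfrsf9 (0.0111) and Cd27 (-0.193).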

How the data were processed

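The authors counted UMIs per gene and per hashtag with Cell Ranger 7.1.0 on mm10 and deposited raw counts for the barcodes called as cells, without normalization. The submitters' processing notes also name Seurat 5.1.0, R 4.3.2 and DESeq2. The version of their annotation is not given in the sources used here. The long and short libraries held 2516 and 4987 barcodes with 23702910 and 31799441 gene UMIs.

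Barcodes were assigned to arms with HTODemux (Seurat 5.3.0, R 4.3.3, quantile 0.99), doublets and negatives were removed, and cells with 200 to 5000 genes and at most 5% mitochondrial UMIs were kept. Doublets within an arm and free RNA were not removed. Of 5 hashtags, the last, whose name also holds DDT, was left out of the tests. Gates needed at least 1 UMI of each named gene.

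Sums of UMIs over the cells of a class in an arm were tested across all genes by edgeR 4.0.16 quasi-likelihood fits (filterByExpr, TMM, Benjamini-Hochberg at 0.05), with arm as a block between classes, or with cohort, anti–PD-1 and anti-MIF as additive terms. SE is the absolute log2 fold change divided by the root of the F statistic. Between classes the filter kept genes that reached its CPM limit in at least 2 sums, and through which class each gene did so was recorded. Arms needed at least 5 cells of a class. This left the Foxp3-positive class with 1 arm and the terms in other CD4 T cells without residual degrees of freedom, so those fits took arms with at least 1 cell, an alternative planned beforehand. DESeq2 1.42.0 was an alternative. The fits were tested on simulated data. Intervals are exact Poisson, conditional binomial or Clopper-Pearson 95% intervals and cover counting error only. A count of 0 was bounded by 3 UMIs over the class. For shares, cells were thinned to 2000 UMIs and shallower cells left out (32 CD8 T, 0 Foxp3-positive, 5 other CD4 T, 7 NK, 5 mature DC and 61 macrophage or monocyte cells).

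Likeness is Pearson's r of log2(CPM + 10) over sums of at least 5 cells, among genes with at least 200 UMIs. The members, and the lists of ligands, receptors, signaling and T cell genes, were chosen with earlier results of these data known. From each list and class comparison, the 4 called genes with the largest absolute fold change were to be named. For the comparison of mature DCs with CD8 T cells only counts and genes at 0 are given, and for that with macrophages and monocytes a part. Coordinates are 1-based, from GENCODE vM21 on GRCm38, joined by Ensembl identifier. Promoter sequences are from RefSeq on GRCm38.p6 (4 of 6 members had an entry). Some genes that the naming rules would pick are not reported here.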

Additional observations from a re-analysis of the deposited data

Results flagged for a closer look

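In groups of 4 to 10 arms, the highest or lowest arm was set against the others by Dixon's criterion, which chance passes in about 1 in 20 groups. Of 22 groups, 4 held such an arm. Tnfrsf4 in CD8 T cells was at 63.2 CPM in the short anti–PD-1 arm (35 UMIs in 114 cells), where the next lowest of the 8 arms was at 146 CPM. Tnfrsf9 in other CD4 T cells was at 2796 CPM in the long anti-MIF arm (68 UMIs in 7 cells), and the next highest of the 4 arms was at 377 CPM. In mature DCs, Icos was at 6.04 CPM in the short isotype arm and Cd27 at 17.6 CPM in the short anti–PD-1 arm, each from 1 UMI.

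The hashtag whose name also holds DDT, left aside above, was used in no test. Its values were set beside the isotype arm of the same cohort in 21 combinations of receptor and class, and in 3 the exact 95% interval of the ratio, which covers counting error only, lay above 1. Icos in long CD8 T cells was at 357 CPM (34 UMIs in 15 cells) against 205 CPM with isotype, a ratio of 1.74 (1.13 to 2.65). Cd27 in the same cells was at 210 CPM against 113 CPM (20 UMIs, ratio 1.85, 1.03 to 3.23). Cd28 in short NK cells was at 105 CPM (10 UMIs in 12 cells) against 21.6 CPM (ratio 4.85, 1.03 to 45.5). The anti–PD-1/anti-MIF arms of the same cohorts stood at 276, 154 and 99.6 CPM for these 3, in the same order. Tnfrsf4 in long CD8 T cells lay the other way, at 73.5 CPM against 183 CPM (ratio 0.402, 0.156 to 0.877). The intervals were not adjusted for the 21 comparisons.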

How the results depend on the processing

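Calls in mature DCs against macrophages and monocytes, of Tnfrsf18 and Icos in NK cells and of Tnfrsf18, Icos and Cd28 in mature DCs against other CD4 T cells held in every alternative run. Of these, only Tnfrsf9 against macrophages and monocytes and Tnfrsf18 in NK cells entered their tests through either class. The others entered through the class where they were high, so that their holding is a description. Lost in at least 1 alternative were Tnfrsf4, Tnfrsf18 and Cd28 between CD8 and other CD4 T cells, Tnfrsf4 and Icos between Foxp3-positive and CD8 T cells, Cd28 in NK cells, and Tnfrsf4 in mature DCs against CD8 and other CD4 T cells. Members called between Foxp3-positive and other CD4 T cells numbered 1 with all classes in 1 fit (0 as reported). Between CD8 and other CD4 T cells (3 as reported) they numbered 4 with at least 1 cell per arm, 1 without a filter on low counts, 0 in either cohort alone and 1 to 3 with an arm left out. Between Foxp3-positive and CD8 T cells (2 as reported) they numbered 1 without the filter, 0 in the long cohort alone and 1 to 3 with an arm left out. The cohort term gave 0 to 1 member with an arm left out, both in CD8 T cells and in Foxp3-positive cells (Tnfrsf9, 3.48, edgeR adjusted p = 0.0184, without long anti–PD-1). That Tnfrsf9 term was 0.24 with all arms and ran from -4.76 to 3.48 with an arm left out.

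Small differences changed sign. For Foxp3-positive against other CD4 T cells, Tnfrsf9 was -0.37 in the long cohort alone, Icos 0.10 in the short cohort alone, and Tnfrsf18 0.28 with the wider gates, 0.071 with the stricter gates, 0.023 with RLE scaling, 0.074 without the filter, 0.12 without the arm block, 0.069 with all classes in 1 fit and 0.13 in the short cohort alone. For CD8 against other CD4 T cells, Tnfrsf9 was 0.30 with MULTIseqDemux, 0.25 with the wider gates, 0.30 with at least 1 cell, 0.54 without the filter, 0.10 with DESeq2, 0.025 with all classes in 1 fit and 0.75 in the short cohort alone. For Foxp3-positive against CD8 T cells, Tnfrsf9 was -0.26 without the filter and -0.62 in the long cohort alone, and Cd28 0.030 with RLE and 0.36 in the long cohort alone. Tnfrsf9 was -0.14 in NK cells with at least 10 cells, and in mature DCs against other CD4 T cells 0.18 without the filter and 0.73 in the short cohort alone. Tnfrsf4 in mature DCs against CD8 T cells was -0.0074 in the short cohort alone. With 1 arm left out, values crossed 0 for Foxp3-positive against other CD4 T cells in Tnfrsf18 (-0.30 to 0.27) and Icos (-0.53 to 0.077), for CD8 against other CD4 T cells in Tnfrsf9 (-0.27 to 0.85), for Foxp3-positive against CD8 T cells in Tnfrsf9 (-0.26 to 0.84) and Cd28 (-0.41 to 0.11), and for mature DCs against other CD4 T cells in Tnfrsf9 (-1.12 to 0.73). In CD8 T cells they did so for the anti–PD-1 term in Tnfrsf4 (-0.33 to 0.21) and Tnfrsf18 (-0.25 to 0.038), for the anti-MIF term in Tnfrsf4 (-0.16 to 0.47), Tnfrsf18 (-0.053 to 0.24), Icos (-0.47 to 0.13) and Cd28 (-0.24 to 0.071), and for the cohort term in Icos (-0.26 to 0.32) and Cd27 (-0.0011 to 0.45). Terms of several members in the CD4 classes crossed 0 as well. The causes were not tested.

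Classes were compared within arms, with the arm as a block. The arms have no replicates and the labels give no replicate numbers. RLE moved the median of all genes from -0.09 to 0.02 between Foxp3-positive and CD8 T cells.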
